A study of Canis lupus familiaris with 39 samples.

Results

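The lymph node and the spleen are the lymphoid organs among the 10 normal dog organs that were profiled, and the comparison described here set the mean of their organ means against the unweighted mean of the 8 other organ means (brain, heart, jejunum, kidney, liver, lung, pancreas and skeletal muscle). The members were 8 of 39 arrays, chosen by the tissue named in the labels, with 4 arrays of lymph node and 4 of spleen. The 8 other organs gave 31 arrays, 4 per organ and 3 for pancreas. All samples were labelled normal and none was treated. According to the methods they were pathologically normal pieces of organ, taken from 4 dogs of both sexes, beagles and mixed breed dogs, aged from months to years, and each dog gave all organs, so arrays of different organs share animals. The lymph nodes were peripheral nodes, and the brain sample was cerebrum. The labels do not say which arrays come from which dog, and no cell type was separated. Values are log2 probeset levels on a canine Affymetrix array, and a difference of 1 is a 2-fold change. Levels were compared between organs for the same probeset, never between genes.

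Lymph nodes and spleen are the sites where lymphocytes that circulate in lymph and blood meet antigen. T cells and B cells occupy separate zones, to which chemokines made by stromal cells draw them. B cells proliferate and mature in germinal centres. Macrophages line the sinuses, and the red pulp of the spleen also clears aged red cells. The capsule and trabeculae of the spleen contain smooth muscle. Every sample was a piece of whole tissue. Fewer cells of a type and less RNA per cell therefore cannot be told apart in any of the values below.

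The tissue labels were checked with CD3E, a signalling chain of the T cell receptor, LCK, the kinase that starts T cell receptor signalling, and GPSM3, a regulator of G protein signalling in leukocytes. CD3E stood at 8.46, 8.84, 9.73 and 9.79 in lymph nodes 1 to 4 and 8.16, 8.24, 4.38 and 8.09 in spleens 1 to 4, and its 31 other arrays lay between 2.97 and 7.77 with a median of 3.29. The spleen 3 array lay far below the other spleens, below every jejunum array (6.16 to 7.77) and below lung 4 (5.99). The remaining 7 lymphoid arrays lay above all others. LCK stood at 9.13, 9.03, 10.34 and 10.52 in lymph nodes 1 to 4 and 8.0, 8.24, 6.01 and 8.74 in spleens 1 to 4, against 3.85 to 7.94 elsewhere. Spleen 3 was again the lowest lymphoid array, below every jejunum array (6.4 to 7.94) and lung 4 (6.9). GPSM3 stood at 7.11, 8.19, 8.66 and 8.31 in lymph nodes 1 to 4 and 7.61, 8.11, 7.45 and 7.19 in spleens 1 to 4, and here no lymphoid array overlapped the others, whose highest value was 5.76 in lung 4. The lymphoid difference was 4.35 ± 0.31 (SE) for CD3E, 4.02 ± 0.24 for LCK and 3.54 ± 0.14 for GPSM3 on the log2 scale, and each was called higher in both organs (adjusted p for spleen = 9.76e-08, 5.09e-09 and 2.38e-15, limma). Against the 8 other organs, 7 lymphoid arrays were thus set apart by all 3 markers, and spleen 3 by GPSM3 alone. None of the 3 was called between lymph node and spleen, so they do not separate these labels. The median of the smooth muscle markers described below did, at 9.43 in spleen 3. It ran from 8.42 to 9.45 over the spleens and from 4.74 to 4.86 in lymph nodes. The second LCK probeset (1.80) and both further GPSM3 probesets (0.43 and 0.82) were higher in the contrast and not called in spleen.

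Spleen 3 stood apart from the other spleens in further T cell genes, and was low together with spleen 4 in B cell genes. Its median over 33 T cell genes was 4.50 against 5.15 to 5.50 in the other spleens. Its median over 23 B cell genes was 4.93, near the 5.05 of spleen 4, against 6.02 and 6.20 in spleens 1 and 2. Its mean correlation with the other spleen arrays over all probesets was 0.943, and those of the other lymphoid arrays with their own organ ran from 0.957 to 0.971. Its macrophage and granulocyte median of 6.90 lay near the 7.07 to 7.66 of the other spleens. Several counts below are given with and without spleen 3. Counts given once include it, and some of them also change without it. Spleen 3 was singled out by low values of lymphocyte genes. Changes in lymphocyte genes without it therefore follow in part from that choice.

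**Figure D1:**
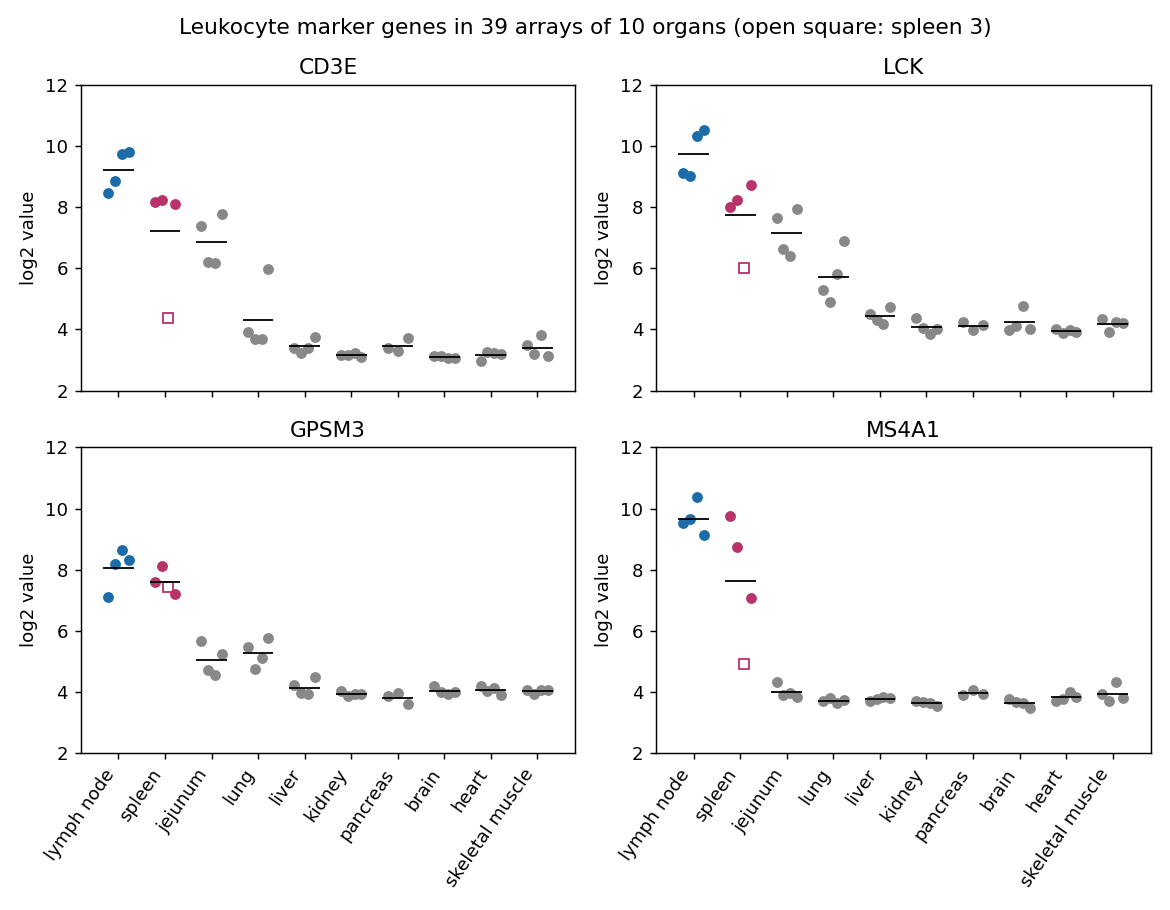
Log2 value (vertical axis) of CD3E, LCK, GPSM3 and the B cell gene MS4A1 in each of the 39 arrays, grouped by organ along the horizontal axis, with a black line at each organ mean and spleen 3 as an open square. All lymphoid arrays stand above the other organs for GPSM3 and MS4A1, and all but spleen 3 for CD3E and LCK, where spleen 3 lies at 4.38 and 6.01.

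The first question was how much of the transcriptome set both lymphoid organs apart. Of 42860 probesets, 5287 (12.3%) were higher and 4561 (10.6%) lower in the lymphoid mean at an adjusted p below 0.001. That call can rest on a single organ. A probeset was therefore called shared when the contrast, the lymph node alone and the spleen alone each passed the same threshold against the 8 other organs in the same direction. This left 1599 probesets shared higher (3.73%) and 2081 shared lower (4.86%), with median lymphoid differences of 1.63 and -1.24 against -0.03 over all probesets. The higher set reached further. In it 1095 probesets exceeded 2-fold in both organs, 603 exceeded 3-fold and 125 exceeded 10-fold, against 1260, 506 and 13 in the lower set. Without spleen 3 the shared counts were 1818 higher and 1798 lower, and 1466 and 1764 of the probesets called with all arrays were among them. Without spleen 2 there were 1134 higher and 1629 lower.

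Being higher than the average organ is not the same as being higher than every organ. Against each of the 8 organs in turn, the lymphoid mean was higher for 307 probesets (0.716%) and lower for 4 (0.00933%). The first count was 421 without spleen 3. All 8 lymphoid arrays lay above all 31 other arrays for 174 probesets (0.406%), of which 172 were shared higher. They lay below all others for 16 (0.0373%), of which 15 were shared lower. At the level of means, both lymphoid organs exceeded all 8 other organs for 1091 of the 1599 shared higher probesets (68.2%), and lay under all of them for 354 of the 2081 shared lower ones (17.0%). For most of the shared lower set, at least 1 other organ had a mean as low as a lymphoid organ.

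**Figure D2:**
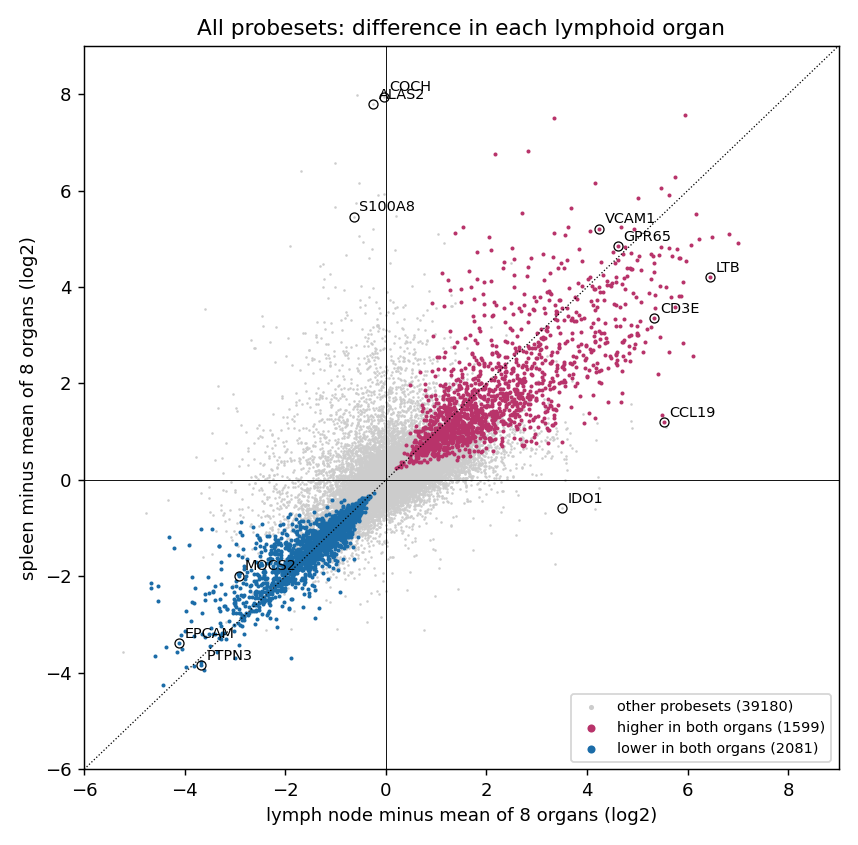
Difference from the mean of the 8 other organs (log2) in lymph node (horizontal axis) and spleen (vertical axis) for 42860 probesets, with the 1599 shared higher and 2081 shared lower ones coloured, named genes ringed and the line of equal difference dotted. The shared higher probesets reach further from 0 than the shared lower ones, and COCH, ALAS2, S100A8 and IDO1 lie near an axis, with a large difference in 1 of the organs.

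Genes with the strongest shared rise were taken from the shared higher probesets with a single symbol on which no lymphoid array overlapped another organ, ranked by the smaller of their organ differences. The 12 genes at the top were IL18, CXCL13, RAC2, CD48, CD37, GPR65, CLEC2D, BCL2A1, LOC488622, LAPTM5, VCAM1 and LTB. They include a cytokine, a chemokine, a cytokine of the tumour necrosis factor family, an adhesion molecule of stroma and vessels, and surface or signalling proteins of leukocytes. No product is named here for LOC488622. LTB encodes lymphotoxin beta, which lymphocytes use to signal to lymphoid stroma. It stood at 10.09, 10.14, 10.60 and 10.05 in lymph nodes 1 to 4 and 9.13, 8.95, 6.74 and 7.04 in spleens 1 to 4, and the 31 other arrays ranged from 3.30 to 4.68. The difference of 5.32 ± 0.17 (adjusted p = 1.11e-21, limma) was larger in lymph node (6.45) than in spleen (4.20), and spleens 3 and 4 were the low spleen arrays. A further LTB probeset did not differ (-0.01, adjusted p = 0.935).

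CXCL13, the chemokine that draws B cells into follicles, stood at 10.70, 10.28, 10.35 and 10.49 in lymph nodes 1 to 4 and 9.52, 8.91, 7.56 and 7.47 in spleens 1 to 4 on its highest-ranked probeset, with no other array above 5.29. Its lymphoid difference of 5.95 was the largest of the 12. The brighter CXCL13 probeset, which stands for the gene in the lists, gave 3.88 and its spleen 3 value of 5.87 fell below the highest pancreas array. GPR65, a proton-sensing receptor of leukocytes, had the smallest SE of the 12 and stood at 8.50, 8.13, 8.65 and 8.34 in lymph nodes 1 to 4 and 9.19, 8.60, 8.38 and 8.45 in spleens 1 to 4 against at most 5.22 elsewhere (difference 4.73 ± 0.11). Its lymph node and spleen arrays overlapped, and spleen 3 was not set apart.

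IL18, a cytokine that promotes interferon gamma production, stood at 10.10, 9.74, 10.24 and 8.82 in lymph nodes 1 to 4 and 10.57, 10.42, 8.93 and 10.06 in spleens 1 to 4 and reached 8.23 in jejunum 2, the highest other array. RAC2, a GTPase of blood cells, stood at 10.92, 11.09, 11.01 and 11.13 in lymph nodes 1 to 4 and 10.60, 10.61, 9.59 and 10.06 in spleens 1 to 4, with lung next at a mean of 8.59. CD48, a ligand of natural killer and T cell receptors, stood at 10.0, 10.52, 10.75 and 10.34 in lymph nodes 1 to 4 and 10.14, 9.99, 9.32 and 9.50 in spleens 1 to 4 with lung at 7.99. In these genes spleen 3 was the lowest or nearly the lowest lymphoid array. The tetraspanin CD37 differed by 4.84, the lectin-like ligand CLEC2D by 5.22, the survival gene BCL2A1 by 4.92 and LOC488622 by 4.64 on the probesets that ranked them. LAPTM5, a lysosomal protein of leukocytes, stood at 11.79, 11.43, 11.76 and 11.91 in lymph nodes 1 to 4 and 11.35, 11.33, 10.88 and 11.36 in spleens 1 to 4, with a lung mean of 10.0, and the test against each of the 8 organs missed the threshold (adjusted p = 0.0431, limma). A further LAPTM5 probeset differed by 1.80 in lymph node and 1.29 in spleen and passed against each of the 8 organs.

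VCAM1, an adhesion molecule by which stroma and vessels hold lymphocytes, is made by other cells than lymphocytes. It stood at 11.40, 10.78, 11.15 and 11.18 in lymph nodes 1 to 4 and 12.08, 11.81, 12.55 and 11.98 in spleens 1 to 4, and the other arrays reached 9.37 in liver 2. Every spleen array exceeded every lymph node array, although the difference between the organs was not called (-0.98, adjusted p = 0.43). Its second probeset differed by 4.16 in lymph node and 6.15 in spleen.

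**Figure D3:**
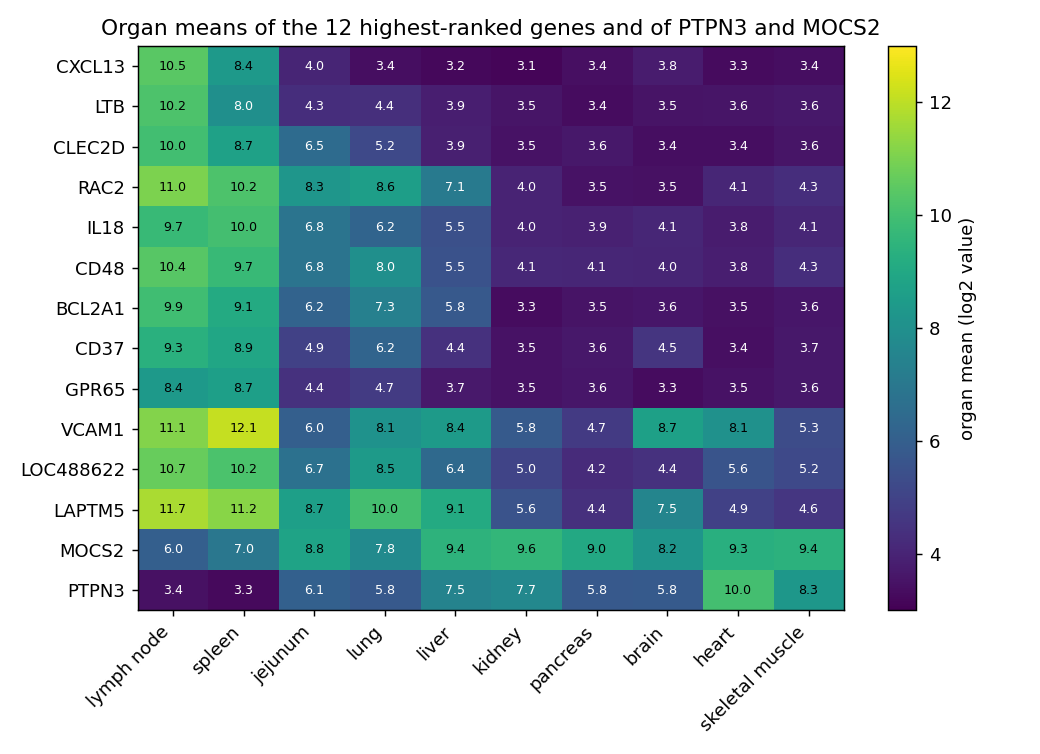
Organ means (log2 value, colour and number) of the 12 highest-ranked shared higher genes and of PTPN3 and MOCS2, with organs along the horizontal axis. Lymph node and spleen hold the highest means of the 12, lung or jejunum usually comes next, and PTPN3 and MOCS2 show the reverse with lymphoid means of 3.3 to 7.0.

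The gene lists below take each gene by its brightest probeset, and 15115 genes had a probeset of their own. Among them 762 (5.04%) were shared higher, 862 (5.7%) shared lower and 146 (0.966%) higher than each of the 8 organs. In the contrast 15.3% were higher and 12.2% lower, and 2.08% were higher in lymph node than in spleen and 2.79% higher in spleen. These shares are the background for the counts of each list. Many genes have further probesets. The 762 shared higher genes had 893 others, of which 297 were shared higher and none shared lower, and the 862 shared lower genes had 1096 others, of which 421 were shared lower and none shared higher. Further probesets of a called gene thus often missed the call.

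T cell receptor and signalling genes were higher in the lymphoid mean in 31 of 33 measured, in both organs in 15, and against each of the 8 organs in 5. Their median difference was 1.48, with 2.37 in lymph node and 0.86 in spleen, against -0.03 over all genes. The differences larger than that of CD3E were those of CD3D, another chain of the receptor complex (5.0), and CD2, an adhesion receptor of T cells (4.51). CD2 stood at 9.78, 9.57, 10.0 and 10.19 in lymph nodes 1 to 4 and 10.19, 9.37, 7.51 and 10.15 in spleens 1 to 4, and jejunum 4 reached 8.89. Spleens 1, 2 and 4 lay near the lymph nodes for CD2, and spleen 3 lay below jejunum 4. The smallest differences were those of the T cell development gene THEMIS (0.27) and the adaptor GRAP2 (0.15), neither called, and for both the pancreas mean (5.21 and 6.81) was the highest of the 8. Without spleen 3, 17 of the 33 were shared higher and 11 passed against each of the 8 organs, among them CD3E (adjusted p = 0.000425, from 0.347 with it), LCK (0.00011, from 0.0119) and CD2 (0.000142, from 0.00236). Between the organs, 19 of 33 were higher in lymph node than in spleen, or 14 without spleen 3, and none was higher in spleen. Since low CD3E, LCK and T cell values singled out spleen 3, these changes without it follow in part from that choice.

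B cell genes gave a more even picture between the organs. Of 23 measured, 21 were higher in the lymphoid mean, 15 in both organs and 12 against each of the 8 organs, with a median of 1.91. MS4A1, the B cell surface protein CD20, stood at 9.53, 9.65, 10.37 and 9.13 in lymph nodes 1 to 4 and 9.77, 8.76, 4.93 and 7.06 in spleens 1 to 4 and at no more than 4.34 elsewhere, and its difference of 4.83 was the largest of the list. Spleens 3 and 4 were the low arrays. LYN, a kinase of B cells and myeloid cells, stood at 8.97, 8.96, 8.53 and 8.71 in lymph nodes 1 to 4 and 10.04, 9.80, 9.41 and 9.74 in spleens 1 to 4, with every spleen above every lymph node. BTK, the kinase downstream of the B cell receptor, stood at 8.84, 8.84, 8.33 and 8.38 in lymph nodes 1 to 4 and 9.20, 7.83, 7.78 and 7.79 in spleens 1 to 4, where spleen 1 was the highest array. CD79B, a chain of the B cell receptor complex named after its values were seen, had a difference of 3.84 and was higher in lymph node than in spleen by 2.20 (adjusted p = 0.000259, limma, and 0.00275 without spleen 3). The smallest differences were 0.25 for FCRL1 and 0.07 for FCER2, neither called. Lymph node was the higher organ for 4 of the 23, or 1 without spleen 3.

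Fewer of the measured plasma cell genes were shared. The list held 16 genes, of which 11 had a probeset of their own. IGHM, MZB1, IRF4 and TNFRSF17 were among those without. Of 11 plasma cell genes, 5 were higher in the contrast, 2 in both organs and 1 against each organ. JCHAIN, the chain that joins secreted antibody, stood at 11.14, 11.26, 11.54 and 12.47 in lymph nodes 1 to 4 and 12.11, 10.96, 11.77 and 12.50 in spleens 1 to 4 and differed by 4.40 from the 8 organs. Its jejunum mean was 11.26, and the difference from jejunum alone was 0.46 (adjusted p = 0.647, limma). SLAMF7, a receptor of plasma cells, stood at 6.09, 6.37, 5.08 and 7.05 in lymph nodes 1 to 4 and 6.05, 5.31, 4.21 and 6.45 in spleens 1 to 4 with no other array above 4.18, and spleen 3 lay just over that level. SSR4, a subunit of the complex beside the secretory translocon, was higher by 0.69 in the contrast, was highest in pancreas (12.04) and was not called in spleen (adjusted p = 0.00131). Without spleen 3 it was called there (adjusted p = 0.000178, limma), and 3 of the 11 were shared higher.

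Genes of leukocyte cytoskeleton and signalling held the largest number of shared higher calls of any list. Of 43 measured, 41 were higher in the lymphoid mean, 32 in both organs and 21 against each of the 8 organs, with a median of 2.91 (lymph node 3.51, spleen 2.35). The largest difference was that of PTPRC, the leukocyte phosphatase CD45, at 9.22, 10.01, 10.78 and 10.85 in lymph nodes 1 to 4 and 10.58, 9.86, 7.42 and 8.95 in spleens 1 to 4. The highest other array of PTPRC was 7.53 in lung 4, just above spleen 3, and the difference was 5.29 ± 0.25. RAC2 and CD48, given above, came next. PTPN7, a phosphatase of lymphocytes, gave 0.25 and was not called. DOCK8, a regulator of leukocyte migration, was called lower (-1.73) on its brightest probeset and 3.03 lower in lymph node than in spleen (not called without spleen 3, adjusted p = 0.00105, limma), but its 6 probesets disagreed: 2 were shared higher (by 2.63 and 1.71), 1 more was lower at -0.85 and the others gave 0.01 and -0.20. The direction of DOCK8 is therefore uncertain. Without spleen 3, 34 of the 43 were shared higher.

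Transcription factors of lymphocytes gave fewer shared calls. Of 34 measured, 18 were higher in the contrast, 8 in both organs and 4 against each organ, with a median of 0.82. Lymph node was the higher organ for 8 of the 34, or 4 without spleen 3. STAT4, which carries interleukin 12 signals, stood at 8.23, 8.14, 9.14 and 8.76 in lymph nodes 1 to 4 and 7.67, 7.73, 6.15 and 7.81 in spleens 1 to 4 with at most 6.0 elsewhere. BATF, a factor of activated lymphocytes, stood at 6.56, 7.70, 7.34 and 7.69 in lymph nodes 1 to 4 and 6.82, 7.29, 6.15 and 7.28 in spleens 1 to 4 with at most 5.64 elsewhere. In both, spleen 3 was the lowest lymphoid array. EOMES, a factor of cytotoxic and memory T cells, differed by 2.29 and more in lymph node (3.16) than in spleen (1.41, adjusted p of the difference between them = 4.11e-05). SPI1, the myeloid and B cell factor PU.1, named after its values were seen, stood at 6.69, 7.31, 6.87 and 7.24 in lymph nodes 1 to 4 and 7.33, 7.56, 6.81 and 7.20 in spleens 1 to 4 with lung 4 next at 6.67. PAX5, the factor of B cell identity, gave -0.27 on its brightest of 5 probesets, and none of the 5 was called.

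Chemokines and homing receptors differed more in lymph node than in spleen. Of 21 measured, 16 were higher in the contrast, 8 in both organs and 5 against each organ, and the median was 2.53 in lymph node and 0.48 in spleen. The largest differences apart from that of CXCL13 were those of CXCL10, an interferon-induced chemokine (4.37), and ITGB2, the beta chain of leukocyte integrins (3.49). CXCL10 stood at 9.60, 10.94, 9.64 and 11.32 in lymph nodes 1 to 4 and 7.33, 8.45, 6.57 and 6.82 in spleens 1 to 4, so every lymph node array exceeded every spleen array, and jejunum 2 reached 9.19, above all spleens. ITGB2 stood at 8.26, 8.54, 8.24 and 8.55 in lymph nodes 1 to 4 and 8.70, 8.87, 8.36 and 8.71 in spleens 1 to 4, above every other array, with lung next at a mean of 6.66. The next genes were chosen after seeing their values. CCL19, a ligand of the receptor CCR7 that guides T cells and dendritic cells, was shared higher with 5.52 in lymph node and 1.20 in spleen. CCL21, the other ligand of CCR7, gave 4.88 and 1.23, and CCR7 gave 2.53 and 0.06. Neither was called in spleen (adjusted p = 0.0134 and 0.861). CXCL12, the stromal chemokine that retains leukocytes, stood at 11.30, 10.70, 10.14 and 11.19 in lymph nodes 1 to 4 and 11.24, 11.35, 11.01 and 11.51 in spleens 1 to 4, with heart 4 next at 9.74.

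Cytokines, their receptors and the tumour necrosis factor family gave 18 of 36 higher in the contrast, 6 in both organs and 5 against each organ, with a median of 0.32. After LTB the largest differences were those of IL16, a T cell attractant (4.35 in lymph node, 2.60 in spleen), and IL27RA, a receptor chain for interleukin 27 (3.28 and 1.53). Both were higher in lymph node than in spleen (adjusted p = 2.64e-05 and 0.000263, limma), but the difference of IL27RA was not called without spleen 3 (adjusted p = 0.00227). For IL27RA the lung mean of 8.28 exceeded all 4 spleens, and for IL16 lung 4 (6.49) exceeded spleen 3 (6.38) alone of the lymphoid arrays. LTBR, the receptor for lymphotoxin on stromal cells, was lower in the contrast (-0.99), with -1.65 in lymph node and -0.33 in spleen, the latter not called, and 4 further LTBR probesets gave -0.13 to -0.21.

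**Figure D4:**
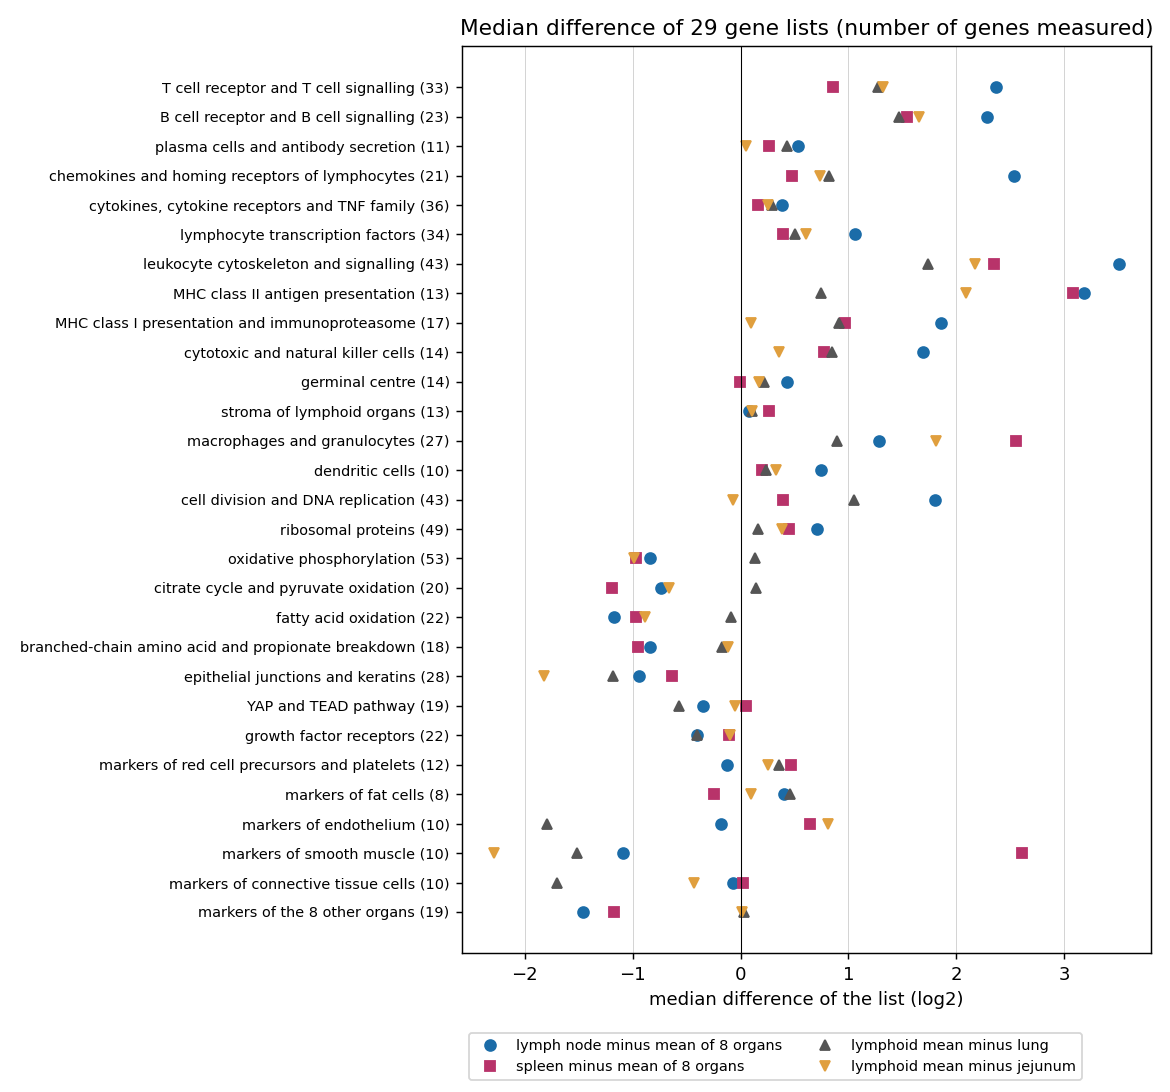
Median difference on the log2 scale (horizontal axis) of each of 29 gene lists in lymph node, in spleen, and for the lymphoid mean against lung and against jejunum alone, with the number of genes measured in parentheses. Leukocyte signalling, MHC class II, B cell, T cell and macrophage lists are among the many that lie above 0 on all 4 measures. Mitochondrial lists lie below 0 against the 8 organs and near 0 against lung, and smooth muscle markers lie above 0 in spleen only.

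Genes of MHC class II antigen presentation were called throughout the measured list. All 13 were higher in both organs, with medians of 3.18 in lymph node and 3.08 in spleen. DLA-DQA1, a canine class II alpha chain, stood at 11.73, 11.55, 11.59 and 11.36 in lymph nodes 1 to 4 and 11.78, 11.55, 11.24 and 11.55 in spleens 1 to 4, and the highest other array was lung 4 at 11.26. DLA-DQB1, a beta chain, stood at 11.33, 11.22, 10.91 and 11.45 in lymph nodes 1 to 4 and 11.26, 11.06, 9.89 and 11.21 in spleens 1 to 4 with lung at 10.49. CD74, the invariant chain, gave 3.84 with lung at 11.85. The median difference of the list from lung alone was 0.75, and 4 of the 13 were higher than each of the 8 organs, with DLA-DOA, a regulator of peptide loading, among them (2.16). The smallest difference was that of the lysosomal reductase IFI30 (1.47), for which kidney was the highest other organ. Class II chains are close relatives in sequence, and how far these probesets tell them apart was not tested.

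MHC class I and immunoproteasome genes were higher in the contrast in 15 of 17, in both organs in 8 and against each organ in none. PSMB8 and PSMB9, inducible proteasome subunits, differed by 3.96 and 3.01, with jejunum means of 10.0 and 11.85 as the highest of the 8. DLA-64, a class I chain, stood at 9.55, 8.97, 10.57 and 9.73 in lymph nodes 1 to 4 and 8.94, 8.41, 5.03 and 8.65 in spleens 1 to 4, where spleen 3 lay far below the other 7. Without spleen 3 the shared count was 9.

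Cytotoxic and natural killer cell genes were higher in 12 of 14, in both organs in 5 and against each organ in 2. KLRD1, a natural killer receptor chain, stood at 5.13, 5.55, 4.63 and 7.90 in lymph nodes 1 to 4 and 9.18, 9.0, 5.78 and 9.94 in spleens 1 to 4, so that 3 spleens exceeded every lymph node. The difference between the organs, -2.67, missed the threshold (adjusted p = 0.00167) and passed it without spleen 3 (adjusted p = 2.19e-06, limma), and the shared call was lost without lymph node 2 and without lymph node 4. CTSW, a protease of cytotoxic cells, stood at 7.62, 7.86, 9.54 and 8.39 in lymph nodes 1 to 4 and 7.28, 7.35, 4.49 and 6.91 in spleens 1 to 4. GZMK, granzyme K, stood at 6.78, 7.12, 8.14 and 8.42 in lymph nodes 1 to 4 and 7.14, 6.27, 6.0 and 7.20 in spleens 1 to 4. Lymph node was the higher organ for both on average, and spleen 3 the lowest lymphoid array. PRF1, the pore-forming perforin, gave 0.26, higher in the contrast and not called in spleen.

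Germinal centre genes gave few calls. Of 14 measured, 4 were higher in the contrast and 2 in both organs, with a median of 0.15. CD83, a surface protein of activated B cells and dendritic cells, stood at 6.95, 7.45, 8.05 and 7.78 in lymph nodes 1 to 4 and 8.43, 6.99, 6.72 and 7.67 in spleens 1 to 4 with no overlap, and IRAG2, a membrane protein of lymphocytes, at 7.99, 8.07, 9.55 and 8.26 in lymph nodes 1 to 4 and 7.52, 7.73, 4.96 and 6.18 in spleens 1 to 4, with spleens 3 and 4 below lung 4 (6.81). A further IRAG2 probeset differed by 2.86 in lymph node and 1.09 in spleen. It had no overlap and was higher than each of the 8 organs. EZH2, a methyltransferase of dividing cells, was higher in lymph node (2.12) and not called in spleen (0.54, adjusted p = 0.0204, limma).

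Macrophage and granulocyte genes differed more in spleen than in lymph node. Of 27 measured, 21 were higher in the contrast, 15 in both organs and 1 against each organ (6 without spleen 3), with medians of 1.28 in lymph node and 2.55 in spleen. MARCO, a scavenger receptor of sinus and marginal zone macrophages, stood at 10.85, 11.58, 7.79 and 10.57 in lymph nodes 1 to 4 and 9.76, 9.65, 8.41 and 8.22 in spleens 1 to 4, with liver at 9.04. C1QC, a complement chain made by macrophages, stood at 11.09, 11.81, 10.71 and 10.96 in lymph nodes 1 to 4 and 12.69, 12.55, 12.48 and 12.82 in spleens 1 to 4, with every spleen above every lymph node and liver at 11.07. CYBB, the oxidase of phagocytes, stood at 10.68, 10.35, 10.50 and 9.76 in lymph nodes 1 to 4 and 10.19, 9.75, 8.62 and 8.98 in spleens 1 to 4, with lung at 9.02. Liver or lung was the next organ in each. Spleen exceeded lymph node for 10 of 27, or 7 without spleen 3, and lymph node exceeded spleen for none. Named after their values were seen, CD68, a lysosomal protein of macrophages, was shared higher with 1.69 in lymph node and 4.0 in spleen, while CD163, the haemoglobin scavenger receptor, and S100A8, a granulocyte protein, were not shared, at 0.75 and -0.64 in lymph node against 4.27 and 5.46 in spleen.

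Dendritic cell genes were higher in the contrast in 5 of 10 and in both organs in 1, LAMP3 of mature dendritic cells, at 6.47, 7.28, 8.16 and 7.69 in lymph nodes 1 to 4 and 6.64, 6.82, 4.06 and 5.23 in spleens 1 to 4. Lung held a LAMP3 mean of 9.67, above both lymphoid organs. CD209, a lectin of dendritic cells and macrophages, and IDO1, an enzyme of tryptophan breakdown, were called in the contrast and not shared, with 3.61 and 3.51 in lymph node against 0.21 and -0.59 in spleen.

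Stromal genes of lymphoid organs gave 3 of 13 shared higher and 1 shared lower. Beside VCAM1, ENPP2, the enzyme that makes lysophosphatidic acid, was shared higher (2.48), though jejunum reached 10.18. COCH, a secreted matrix protein, was higher than each of the 8 organs in the contrast and yet not shared, since lymph node differed by -0.04 and spleen by 7.95. PDPN, a marker of lymph node stroma and of alveolar cells, was shared lower (-2.16), with its highest values in lung (10.06), and was no longer shared without lung in the reference.

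Genes of cell division and DNA replication were higher in the contrast in 39 of 43, yet in both organs in only 8 and against each organ in 1. The lymph node median was 1.80 and the spleen median 0.39, and 25 of 43 were higher in lymph node than in spleen, or 17 without spleen 3. MCM4, a subunit of the replicative helicase, stood at 8.88, 10.20, 8.96 and 10.11 in lymph nodes 1 to 4 and 8.54, 9.08, 7.39 and 8.20 in spleens 1 to 4. MCM6, another subunit, stood at 10.71, 11.05, 10.02 and 10.88 in lymph nodes 1 to 4 and 9.44, 10.12, 8.88 and 9.12 in spleens 1 to 4, with jejunum at 10.15. TOP2A, the topoisomerase of dividing cells, stood at 9.35, 8.72, 8.10 and 8.22 in lymph nodes 1 to 4 and 6.93, 7.18, 4.18 and 4.03 in spleens 1 to 4, with jejunum at 8.48. Spleens 3 and 4 lay below the lung mean of 4.83 for TOP2A, spleens 1 and 2 above it, and the gene was not called in spleen (adjusted p = 0.0109). Without spleen 3 it was called in spleen (adjusted p = 0.000825, limma) and was shared higher. Spleen 4, the lowest spleen for TOP2A at 4.03, remained in that fit. Against jejunum, an organ with dividing crypts, the median difference of the list was -0.07.

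Ribosomal protein genes differed by less. Of 49 measured, 39 were higher in the contrast and 16 in both organs, with a median of 0.60. RPS19 stood at 12.56, 12.45, 12.25 and 12.51 in lymph nodes 1 to 4 and 12.46, 12.52, 11.76 and 12.28 in spleens 1 to 4 against 10.50 to 12.18 elsewhere, and only spleen 3 fell within that range. RPL14 and RPL36 both differed by 0.87, and RPL36 was not called in spleen (adjusted p = 0.122). Of 13 housekeeping genes, 8 were higher in the contrast with a median of 0.63, and with arrays set to an equal housekeeping median RPS19 and RPL14 were no longer shared. The 13 include RPS19 and other ribosomal protein genes, so this shift removes part of the ribosomal difference by construction.

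Lung and jejunum, the mucosal organs that carry resident leukocytes, were taken to count how much of the shared rise is also found against them. Among the 8 other organs lung held the highest mean for 721 of the 1599 shared higher probesets (45.1%) and jejunum for 380 (23.8%), against 11.8% and 9.02% of all probesets. Against lung alone 617 (38.6%) were higher in the lymphoid mean, and against jejunum alone 953 (59.6%). Over all probesets the shares were 2.78% and 4.96%. The shared higher set was chosen on the same arrays against a mean that includes lung and jejunum. A share above that of all probesets therefore follows from that choice. At the level of genes the backgrounds are 3.84% of 15115 higher than lung and 6.17% higher than jejunum. Of the 33 T cell genes 22 were higher than lung and 18 higher than jejunum, of the 23 B cell genes 16 and 15, and of the 43 leukocyte signalling genes 29 and 33. Macrophage genes passed in 12 of 27 against lung and 20 against jejunum. MHC class II genes passed in 4 of 13 against lung and 9 against jejunum, class I genes in 4 and 2 of 17, and cell division genes in 21 and 2 of 43. Ribosomal protein genes passed in none against lung and in 3 against jejunum.

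Without lung in the reference, 479 probesets were higher than each of the 7 remaining organs and 1926 were shared higher. Without jejunum the counts were 430 and 1763, and without pancreas 349 and 1474. The each-organ counts rise by construction, since fewer organs had to be passed.

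The shared lower set had fewer genes that stood under every organ. PTPN3, a phosphatase with a FERM domain, and MOCS2, a subunit of the enzyme that makes the molybdenum cofactor, were the named genes lower than each of the 8 organs. PTPN3 stood at 4.03, 3.23, 3.27 and 3.24 in lymph nodes 1 to 4 and 3.07, 3.42, 3.55 and 3.05 in spleens 1 to 4, and its other arrays ran from 4.64 to 10.25 with heart the highest organ. The difference was -3.75 ± 0.21 (adjusted p = 9.75e-16, limma), with -3.67 in lymph node and -3.84 in spleen, and lymph node 1 was the highest lymphoid array. The 2 further PTPN3 probesets differed by -0.74 and -0.75, and the first was shared lower. MOCS2 stood at 5.66, 6.47, 5.49 and 6.53 in lymph nodes 1 to 4 and 7.07, 6.61, 6.88 and 7.31 in spleens 1 to 4, against 7.61 to 9.97 elsewhere. All lymph node arrays lay under all spleen arrays for MOCS2, with differences of -2.92 and -1.99.

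Other named genes without overlap, chosen after their values were seen, were FARP1, a guanine nucleotide exchange factor with a FERM domain, SRD5A1, a steroid reductase, HOOK2, a linker of cargo to microtubules, and ARL6IP5, a protein of the endoplasmic reticulum. FARP1 stood at 5.97, 5.50, 4.56 and 5.67 in lymph nodes 1 to 4 and 6.42, 6.36, 6.15 and 6.68 in spleens 1 to 4, and pancreas was the lowest other organ at 6.83. SRD5A1 stood at 4.30, 4.02, 3.99 and 4.90 in lymph nodes 1 to 4 and 4.50, 4.97, 4.61 and 4.92 in spleens 1 to 4, with jejunum lowest at 5.41. HOOK2 stood at 4.17, 3.93, 4.25 and 4.26 in lymph nodes 1 to 4 and 3.97, 3.69, 3.94 and 4.01 in spleens 1 to 4, with heart lowest at 4.94. ARL6IP5 differed by -1.36, and its most variable probeset was not shared lower. All 8 lymphoid arrays lay under all others for each, and none of the 4 passed against each of the 8 organs (adjusted p from 0.00372 for ARL6IP5 to 0.459 for SRD5A1).

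Mitochondrial lists carried most of the shared lower calls among the lists. Of 53 oxidative phosphorylation genes, 46 were lower in the contrast and 33 in both organs, with a median of -0.88, and none was lower than each of the 8 organs. ATP5MC1, a membrane subunit of ATP synthase, stood at 9.04, 10.18, 9.52 and 10.15 in lymph nodes 1 to 4 and 8.86, 9.38, 8.37 and 8.78 in spleens 1 to 4 against a heart mean of 12.72 and a lung mean of 8.89. NDUFB5, a subunit of complex I, stood at 7.50, 7.88, 7.24 and 7.38 in lymph nodes 1 to 4 and 8.08, 7.98, 7.91 and 8.31 in spleens 1 to 4, with heart at 11.12 and lung at 8.23. ATP5MC2, whose product is the same subunit as that of ATP5MC1, did not follow, with a difference of 0.16 that was not called. The list median in the lymphoid arrays ran from 9.12 to 9.83. It lay at 9.24 to 9.40 in lung and 8.95 to 9.22 in pancreas, and at 11.34 to 11.63 in heart and 11.08 to 11.54 in skeletal muscle. Against lung alone 1 gene was higher and none lower, and against jejunum alone 35 were lower, where 6.09% and 7.44% of all genes were lower than lung and jejunum. Spleen 3 had the lowest list median of the lymphoid arrays, and without it 29 of the 53 were shared lower.

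Of 20 citrate cycle genes 12 were lower in the contrast and 7 in both organs. The counts were 18 and 9 of 22 fatty acid oxidation genes. For 18 genes of branched-chain amino acid and propionate breakdown they were 14 and 6. Without spleen 3 the counts in both organs were 6, 8 and 4 for these lists. SUCLA2, a succinyl-CoA ligase subunit, stood at 6.21, 7.22, 6.58 and 7.44 in lymph nodes 1 to 4 and 7.36, 6.82, 5.24 and 7.18 in spleens 1 to 4, where spleen 3 was the lowest array. PDK2, a kinase of pyruvate dehydrogenase, gave -1.71 and was not called in spleen. HADH, an enzyme of fatty acid oxidation, gave -1.72, and PPARA, the receptor that induces such enzymes, stood at 4.35, 4.41, 4.15 and 4.48 in lymph nodes 1 to 4 and 4.41, 4.62, 4.93 and 4.70 in spleens 1 to 4, near its lung mean of 4.55. MCEE, the epimerase of propionate breakdown, stood at 7.89, 8.08, 7.85 and 8.46 in lymph nodes 1 to 4 and 8.33, 8.27, 8.14 and 8.63 in spleens 1 to 4, and the lowest other array was lung 2 at 8.48, below spleen 4. HIBADH, of valine breakdown, differed by -2.37 in lymph node and -1.16 in spleen. On their most variable probesets HIBADH and SUCLA2 were not shared lower. No gene of these 4 lists was called higher in the contrast.

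Epithelial junction and keratin genes were lower in 18 of 28 and in both organs in 15, with a median of -0.89. EPCAM, an epithelial adhesion molecule, stood at 3.60, 3.36, 3.41 and 3.52 in lymph nodes 1 to 4 and 4.29, 3.95, 4.33 and 4.24 in spleens 1 to 4, with heart at 3.56 and jejunum at 11.87, and all 3 of its probesets were shared lower. CGN, cingulin of tight junctions, stood at 3.48, 3.46, 3.63 and 3.45 in lymph nodes 1 to 4 and 3.52, 3.44, 3.72 and 3.51 in spleens 1 to 4, and KRT8, a keratin of simple epithelia named after its values were seen, at 4.64, 4.63, 4.45 and 4.61 in lymph nodes 1 to 4 and 4.84, 4.80, 4.95 and 5.65 in spleens 1 to 4. The heart means of CGN and KRT8 were 3.58 and 4.59 and their jejunum means 9.75 and 11.13. WWC1, an upstream regulator of the Hippo pathway, was shared lower (-3.02) and was the 1 of 19 YAP and TEAD pathway genes that was. Of 22 growth factor receptors 5 were shared lower (3 without spleen 3) and none shared higher. ERBB3, a receptor of neuregulins, gave -1.78. FGFR2, a receptor of fibroblast growth factors, gave -3.45 in lymph node and -1.01 in spleen, where it was the higher of the organs (adjusted p = 1.93e-08), and was no longer shared without lung in the reference. NTRK2, a neurotrophin receptor, was higher in the contrast (1.94) through spleen (3.11) and not called in lymph node (0.77). Of 19 markers of the 8 other organs 12 were lower and 7 shared lower, such as the liver apolipoprotein gene APOA1 (-3.45), and none was higher.

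For the shared lower probesets the highest mean of the 8 organs was most often that of liver (21.2%, against 8.19% of all probesets), brain (17.8%, against 13.8%), heart (16.1%, against 8.29%) or kidney (14.6%, against 7.06%), and lung held the lowest in 602 (28.9%), against 22.3% of all probesets. Against lung alone 444 (21.3%) were lower in the lymphoid mean, and against jejunum alone 789 (37.9%). Over all probesets 5.05% were lower than lung and 5.56% lower than jejunum. The shared lower set too was chosen against a mean that includes both organs, so larger shares in it follow from that choice.

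Within the shared sets the organs still differed from each other. Over all probesets 1677 (3.91%) were called between lymph node and spleen, 709 (1.65%) higher in lymph node and 968 (2.26%) higher in spleen. Among the 1599 shared higher probesets 163 (10.2%) were higher in lymph node and 39 (2.44%) in spleen. Among the 2081 shared lower ones 2 were higher in lymph node and 23 in spleen. The lists above follow this split, with T cell, chemokine and cell division genes on the lymph node side and macrophage genes on the spleen side.

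Genes of other cell types moved with the organs. Markers of smooth muscle had list medians of 4.74 to 4.86 in the lymph node arrays and 8.42 to 9.45 in the spleen arrays, with jejunum at 9.29 to 12.04, and 7 of 10 were higher in spleen than in lymph node. MYH11, smooth muscle myosin, stood at 7.18, 5.35, 5.99 and 6.35 in lymph nodes 1 to 4 and 11.99, 11.34, 12.22 and 12.36 in spleens 1 to 4. ACTA2, smooth muscle actin, was named after its values were seen. It stood at 8.94, 7.67, 6.89 and 8.06 in lymph nodes 1 to 4 and 12.19, 11.82, 12.62 and 12.46 in spleens 1 to 4. Markers of red cell precursors and platelets had medians of 3.68 to 3.88 in lymph node and 4.55 to 5.21 in spleen, with 5 of 12 higher in spleen. ALAS2, the haem synthesis enzyme of red cell precursors, stood at 3.48, 3.68, 3.68 and 3.78 in lymph nodes 1 to 4 and 10.97, 11.43, 11.98 and 12.39 in spleens 1 to 4. The other arrays reached 6.64 for ALAS2, so the spleens lay above all of them and the lymph nodes did not. Markers of endothelium had medians of 4.99 to 5.31 in lymph node and 5.93 to 6.75 in spleen, and markers of connective tissue 5.72 to 8.58 and 6.0 to 8.24. None of these lists had a shared higher member, and their part in the other differences between lymph node and spleen was not tested.

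Markers of fat cells had a list median of 6.79 in lymph node 4 and of 3.82 to 4.07 in the other lymph nodes. FABP4, a fatty acid carrier of fat cells and capillaries, stood at 9.35, 9.34, 4.13 and 11.52 in lymph nodes 1 to 4 and 2.89, 2.84, 3.04 and 5.17 in spleens 1 to 4, and ADIPOQ, the fat cell hormone adiponectin, at 8.12, 6.94, 6.65 and 10.19 in lymph nodes 1 to 4 and 5.66, 5.98, 6.17 and 5.83 in spleens 1 to 4. Lymph node 4 was the highest lymphoid array for both, and every lymph node exceeded every spleen for ADIPOQ. No fat cell marker was called in the contrast. Without lymph node 4 the shared counts were 1436 higher and 1808 lower.

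**Figure D5:**
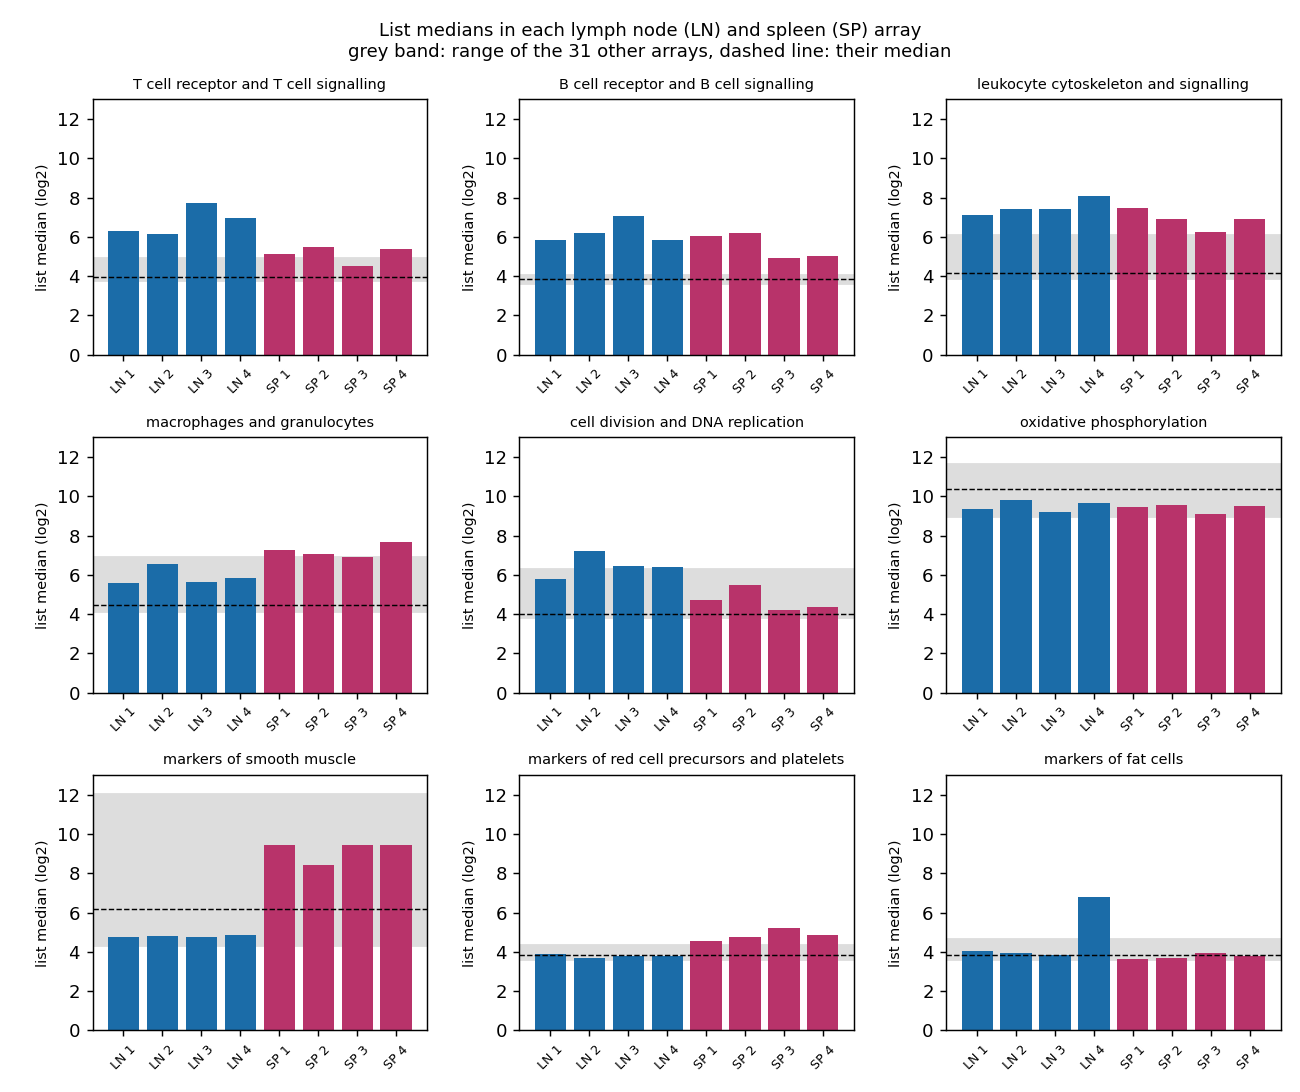
Median log2 value of 9 gene lists (vertical axis, from 0) in each lymph node (LN, blue) and spleen (SP, red) array, with the range of the 31 other arrays as a grey band and their median as a dashed line. T and B cell medians are lowest in spleen 3, smooth muscle medians lie between 8.42 and 9.45 in every spleen, and the fat cell median of lymph node 4 is 6.79.

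Of the 1599 shared higher probesets 439 had no single symbol, and of the 2081 shared lower ones 577, while 29254 of all 42860 probesets had one. Ranked by the smaller of the organ differences, the first 2 probesets without overlap were among them, and all 4 probesets described here were chosen after seeing their values. The first stood at 9.90, 10.12, 9.46 and 10.95 in lymph nodes 1 to 4 and 10.82, 10.60, 9.69 and 11.46 in spleens 1 to 4 and the second at 11.04, 11.39, 11.63 and 10.67 in lymph nodes 1 to 4 and 10.79, 10.70, 10.55 and 10.06 in spleens 1 to 4, above all other arrays, which reached 9.14 in jejunum 4 and 9.10 in liver 1. In the lower set, 2 unnamed probesets were lower than each of the 8 organs, the first of them not without spleen 3. They stood at 4.37, 4.41, 3.87 and 4.16 in lymph nodes 1 to 4 and 7.31, 7.70, 6.66 and 7.63 in spleens 1 to 4 and at 5.09, 4.74, 4.32 and 4.92 in lymph nodes 1 to 4 and 5.98, 6.27, 6.10 and 6.42 in spleens 1 to 4, so the lymph nodes lay under all other organs and spleen arrays reached into their range. No gene was assigned to these 4 probesets here.

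Some shared calls of named genes rested on single arrays. Among the 83 named probesets that were shared, leaving out a lymphoid array removed the call of KLRD1 (lymph node 2 or 4), PDPN (lymph node 1 or 3), SUCLA2 (lymph node 1 or 3, or spleen 3), HIBADH and IFI30 (spleen 1 or 2, and for HIBADH spleen 3), DLA-64 (spleen 1, 2 or 4), LAMP3 (spleen 1 or 2), RPL14 (spleen 1, 2 or 4), CXCL10, MCM6 and FGFR2 (spleen 2) and the first of the unnamed shared lower probesets (spleen 1, 3 or 4). Leaving out an array of another organ removed none. With spleen 3 left out the spleen p was 0.00109 for SUCLA2 and 0.00269 for HIBADH (adjusted, limma).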

How the data were processed

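RNA from 10 normal organs of 4 dogs was hybridised to Affymetrix Canine 2.0 arrays. The deposited values are log2 levels of 42860 probesets on 39 arrays. The authors made them in Partek: probe values were adjusted for sequence, corrected for background by RMA, quantile normalized and summarised by median polish. The authors left out 1 pancreas array. Array medians ran from 3.95 to 4.11. Scan dates were not used here. Precision is limited by the number of arrays.

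Organs were compared with limma 3.58.1 in R 4.3.3, with a mean per organ over all 39 arrays, moderated variances and Benjamini-Hochberg adjustment over all 42860 probesets per contrast at 0.001. Shared probesets passed in the contrast and in each lymphoid organ. Probesets higher or lower than each of the 8 organs had the same sign in all 8 comparisons, and the largest of their 8 p-values was adjusted. SE values come from the fit. The labels do not tie arrays to dogs, so p-values treat arrays as independent samples although organs share animals.

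Of the probesets, 29254 had a single symbol in the platform annotation, 439 several and 13167 none. A gene was represented by its single-symbol probeset with the highest mean. The 30 gene lists held 775 genes, of which 660 were matched. Members and lists were chosen with earlier results of these data known. The genes named were CD3E, LCK and GPSM3, the 12 genes with the largest smaller difference among shared higher probesets without overlap, PTPN3 and MOCS2, and, by list, the 3 largest and 2 smallest differences, of which those that failed the test are mostly given as counts. Genes outside this rule are said to be named after their values were seen. The fit was tested on simulated data. Alternatives changed the variance estimate, array weights, replicate block, scaling, dim-probeset filter, reference organs, probeset per gene, threshold and arrays included.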

Additional observations from a re-analysis of the deposited data

Results flagged for a closer look

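Within the 4 arrays of an organ, an array was set apart by Dixon's test in 24 of 280 groups of values tested, over named genes and list medians. Chance alone sets apart about 1 in 20 such groups. Spleen 3 accounted for 9 of the 24, lymph node 2 for none, and each remaining lymphoid array for 1 to 4. The values of spleen 3 were those of CD3E (4.38, low), LAPTM5 (10.88, low), STAT4 (6.15, low), DLA-DQB1 (9.89, low), DLA-64 (5.03, low), CTSW (4.49, low), ATP5MC2 (9.90, low), oxidative phosphorylation (9.12, low), branched-chain amino acid and propionate breakdown (6.47, low). The last 2 of these are list medians. Lymph node 1 was set apart for CD37 (9.04, low), PTPN3 (4.03, high), RPL14 (12.02, low), growth factor receptors (4.17, high), the last a list median. Lymph node 3 was set apart for LTB (10.60, high), CGN (3.63, high), KRT8 (4.45, low). For lymph node 4 the values were those of ARL6IP5 (8.14, high), markers of fat cells (6.79, high). Spleen 1 was set apart for BTK (9.20, high), PDK2 (4.50, high), spleen 2 for markers of smooth muscle (8.42, low), and spleen 4 for ERBB3 (4.44, high), FABP4 (5.17, high), YAP and TEAD pathway (4.65, high). Why these arrays stand apart was not tested.

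Lymph node and spleen differed from each other (adjusted p below 0.001, limma) for 28 of the named probesets. Values are lymph node minus spleen on the log2 scale. Lymph node was higher for CXCL13 on its less bright probeset (2.09), LTB (2.26), CD3D (1.80), CXCL13 (2.45), IL16 (1.76), IL27RA (1.75), EOMES (1.74), EZH2 (1.58), LAMP3 (1.71), CD209 (3.40), IDO1 (4.10), TOP2A (3.02), CD79B (2.20), CCL19 (4.31), CCL21 (3.65), CCR7 (2.48). Spleen was higher for LTBR (-1.33), DOCK8 (-3.03), COCH (-8.00), FGFR2 (-2.44), ALAS2 (-8.04), MYH11 (-5.76), S100A8 (-6.10), CD163 (-3.52), CD68 (-2.31), ACTA2 (-4.38), the first (-3.12), and the second unnamed shared lower probeset (-1.42). Without spleen 3, 6 of these differences were no longer called, those of CD3D (adjusted p = 0.00949), IL27RA (0.00227), LTBR (0.00163), DOCK8 (0.00105), LAMP3 (0.00559) and CD79B (0.00275).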

How the results depend on the processing

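The contrast, shared, each-organ and lymph node against spleen counts stayed within 1.5 times their reported values with ordinary or trended variance, a median shift, equal quantiles, removal of dim probesets and the replicate block. Array weights gave 2896 shared higher. With arrays shifted to equal housekeeping medians the contrast gave 3246 higher and 2289 lower, the shared sets 870 and 782 and the each-organ sets 94 and 1, with 766 called between lymph node and spleen. The cause was not tested. At an adjusted p below 0.05 the counts were 8757 and 9290, 3600 and 4495, 603 and 20, and 4606. The each-organ count was 479 higher and 15 lower without lung in the reference, and 8 and 7 lower without pancreas or jejunum, by construction since fewer organs had to be passed. Leaving out 1 array gave contrast counts of 4632 (without spleen 2) to 5564 (without spleen 3) higher and 3945 to 4904 lower, shared counts of 1134 (without spleen 2) to 1818 (without spleen 3) higher and 1629 to 2339 lower, each-organ counts of 269 to 421 higher and 2 to 4 lower, and 1183 to 1743 between the organs. The DOCK8 difference of -1.73 became 2.63, shared higher, on its most variable probeset. With the most variable probeset taken for each gene, the shared calls of SUCLA2, HIBADH and ARL6IP5 were lost. Of 83 named shared probesets, 8 lost the call under the housekeeping shift, 3 without lung in the reference (PDPN, FGFR2 and an unnamed probeset) and at most 8 without 1 array. Dim probesets may limit what can be called lower, which was not tested. With them removed, 2165 probesets were shared lower and 4 were lower than each of the 8 organs.

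With the replicate number as a block the contrast gave 5645 higher and 4811 lower, the shared sets 1787 and 2229, the each-organ sets 324 and 6, and 1840 differed between lymph node and spleen. The labels do not tie numbers to dogs. Residuals of same-numbered lymph node and spleen arrays correlated at -0.09, 0.34, 0.12 and 0.35, so that pairing was not established. Over all organs, 30 of 39 arrays correlated best with their own number. Between arrays of different organs the median residual correlation was 0.138 for the same number and -0.049 for different numbers. These values are a hint from the data and not from the design.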
